A study of Mus musculus with 9 samples.

Results

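The cytosolic chaperonin, known as TRiC or CCT, is a barrel of a pair of stacked rings, and each ring is built of 8 related but different subunits. Newly made proteins enter its central chamber and fold there as the subunits bind and hydrolyse ATP. Actin and tubulin are its best known clients, and macrophages use both in migration and phagocytosis. Each ring holds 1 copy of every subunit, so the complex uses them in equal numbers. The 8 genes described here are those that encode these subunits: Tcp1 (alpha), Cct2 (beta), Cct3 (gamma), Cct4 (delta), Cct5 (epsilon), Cct6a (zeta), Cct7 (eta) and Cct8 (theta). They were chosen by name, with earlier results of these data known, and make up 8 of the 54281 genes in the deposited table. All 8 passed the filter on low counts, which kept 15713 genes.

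Inhaled ozone is an oxidant gas that damages airways and alveoli, where resident macrophages respond to it. RNA was sequenced from lung macrophages of 9 female wild-type mice, 12 weeks old and from Jackson Labs, in 3 groups of 3 mice. Mice were killed 72 h or 24 h after breathing 0.8 ppm ozone for 3 h in a whole-body chamber, and controls breathed air. The strain, and the time between air exposure and death, are not stated in the labels. Macrophages were washed out of the lung with massage and red cells were lysed, and no sorting step is stated. Each library is labelled as a separate sample of its group, so the errors below cover mouse and library together.

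The libraries held 47095543 to 60248305 estimated counts each. A single subunit had 5522 to 14819 counts in a library, so counting error alone was 0.821 to 1.35%. Markers of alveolar macrophages were high in every library. Over 12 genes they summed to 24010 to 28350 CPM at 72 h, 20910 to 29020 CPM at 24 h and 30550 to 33040 CPM in air. CPM is the normalised read count, scaled to a common library total. Chil3 made up most of each sum. In the edgeR fit described below, 10 of the 12 were lower at 72 h than in air. Of these, 3 had an adjusted p under 0.05 (Ear1, Krt79 and Marco), beside 3.77% of all genes lower. The number was 4 without the pair of libraries described next, beside 2.66%. Against 24 h it was 0 in both fits. Libraries from 72 h replicate 1 and 24 h replicate 2 stood apart from the other 7. Their summed B cell markers (6 genes) were 364.8 CPM at 72 h and 602.9 CPM at 24 h, against 0.4491 to 4.645 CPM in the others, where Pax5 and Fcmr were at 0 in some libraries. Their summed markers of serous cavity macrophages (5 genes, of which Gata6 and Selp were at 0 in some libraries) were 714.9 and 539.2 CPM, against 1.962 to 3.726 CPM. T cell markers (6 genes) summed to 226 and 487.6 CPM in the same pair, against 222.6 to 253.9 CPM in the others. Cd2, which was high in every library, gave 190 and 232 CPM of the sums in that pair. The 5 T cell markers other than Cd2 summed to 35.96 and 255.5 CPM, against 2.047 to 6.605 CPM. Erythroid markers (5 genes) summed to 2504 and 2906 CPM, against 854.6 CPM in 24 h replicate 1 and 12.15 to 142.8 CPM in the remaining libraries. Results on the subunits and on each list are therefore given with and without 72 h replicate 1 and 24 h replicate 2. The fits without that pair keep 24 h replicate 1. In RNA from a whole population, fewer cells that express a gene and less RNA per cell cannot be told apart.

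The transcripts of all 8 subunits followed the same order over the groups. They were lowest 72 h after ozone, intermediate in air and highest 24 h after ozone, with no overlap between any of the groups for any subunit. Over the whole table, 2.75% of tested genes had this order with no overlap. The level of the 8 subunits added together was 1185, 1233 and 1313 CPM in the 72 h mice. It was 1693, 1683 and 1588 CPM in the 24 h mice and 1459, 1439.7 and 1522 CPM in the air mice. The sums averaged 1243 ± 64.8 CPM at 72 h, 1655 ± 58.3 CPM at 24 h and 1473 ± 42.9 CPM in air (SD, n = 3 each). In a joint edgeR quasi-likelihood F test for any difference among the groups, all 8 subunits had a Benjamini-Hochberg adjusted p under 0.05 (0.0115 to 0.0271). That test passed 13.2% of all genes. Leaving out single libraries changed the number of subunits passing that test. The number was 0 without 72 h replicate 2, without 72 h replicate 3 or without 24 h replicate 1. It was 3, 4 and 5 without 72 h replicate 1, 24 h replicate 3 and air replicate 2. In the same order, these fits passed 15, 53, 70, 390, 858 and 563 of all genes, against 2081 with all libraries.

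**Figure D1:**
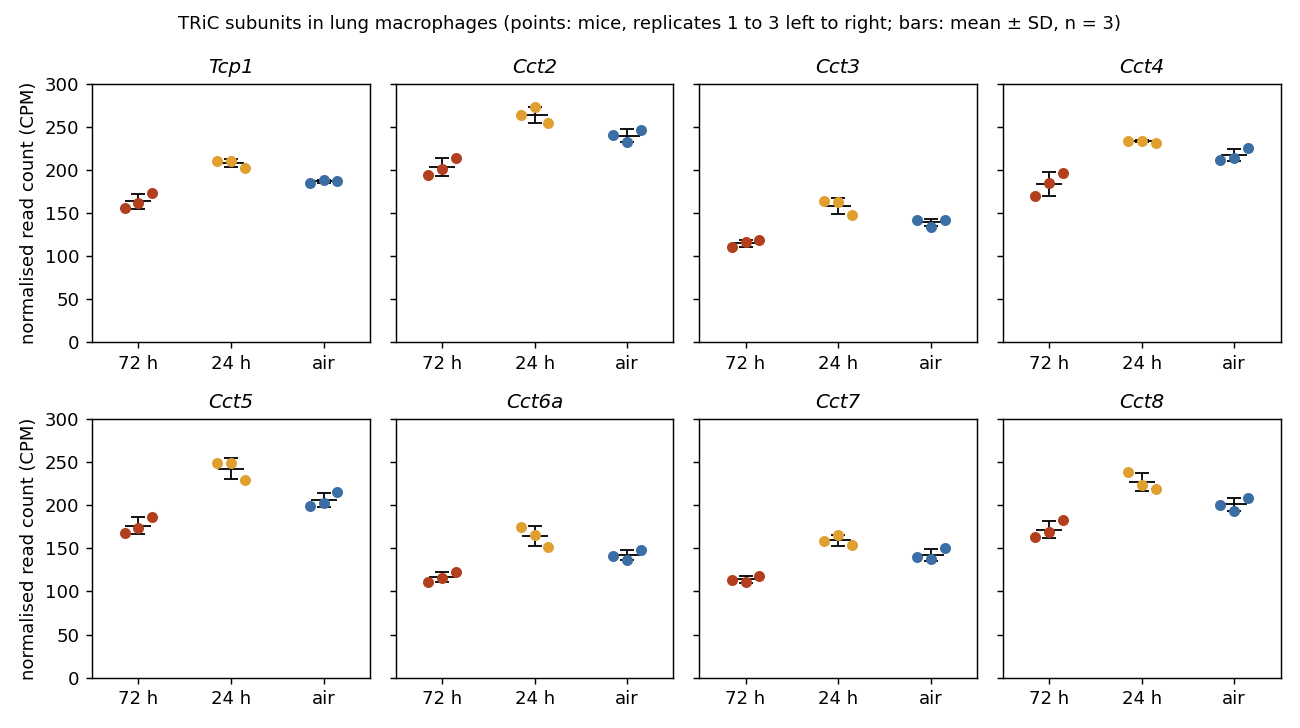
Normalised read count (CPM) of each TRiC subunit, with 1 point per mouse and bars for the mean ± SD of 3 mice, at 72 h and 24 h after ozone and in air. In every panel the 72 h points lie lowest, the air points in between and the 24 h points highest, as in the sums of 1243, 1655 and 1473 CPM.

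The first question was how the later time compared with the earlier one. From this point a gene is said to be called when its adjusted p, over all genes tested, was under 0.05. All 8 subunits fell at 72 h relative to 24 h, with changes of -21.2% for Cct4 to -29.0% for Cct6a (median -25.8%). The genes called lower in this comparison were 12.8% of all those tested, and those called higher 5.39%. All 72 h libraries lay below all 24 h libraries for each of the 8 subunits, as they did for 22.7% of tested genes. The median log2 fold change of the subunits was -0.43, beside -0.03 over all tested genes.

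Cct7 had the smallest p among the subunits. It measured 113, 111 and 118 CPM in the 72 h mice, 159, 166 and 153 CPM in the 24 h mice, and 140, 137 and 150.1 CPM in the air mice. The 72 h mice were closely grouped and well below the other mice, while the 24 h and air mice lay only a few CPM apart at their nearest. Its log2 fold change at 72 h against 24 h was -0.48 ± 0.06 (SE; edgeR quasi-likelihood adjusted p = 0.0052), and it stood at rank 69 of all genes by p. Cct3 measured 109.9, 116 and 118 CPM in the 72 h mice, 164, 162 and 147 CPM in the 24 h mice, and 141, 134 and 142 CPM in the air mice. Here too the 72 h mice were well below the others, and 24 h replicate 3 was the library nearest to air. The change of Cct3 was -0.46 ± 0.06 (edgeR adjusted p = 0.00595). Cct3 and Cct7 are the pair that also passed the test at 72 h against air, below.

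Their upstream sequences are shown because these are the subunits called lower at 72 h against both other groups. Each is the 250 bases before the RefSeq transcript start in the GRCm38.p6 build, on the plus strand, at chr3:88296885-88297134 for Cct3 and chr6:85451255-85451504 for Cct7. Capitals mark the CCAAT box (CCAAT, or ATTGG on the other strand) and the GC box (GGGCGG, or CCGCCC on the other strand), and no base fell in more than 1 match.
Cct3: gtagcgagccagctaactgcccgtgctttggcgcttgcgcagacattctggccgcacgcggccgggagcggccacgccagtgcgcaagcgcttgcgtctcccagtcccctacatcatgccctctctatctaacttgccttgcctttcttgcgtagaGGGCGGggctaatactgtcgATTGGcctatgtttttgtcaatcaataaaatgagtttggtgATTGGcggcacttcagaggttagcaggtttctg
Cct7: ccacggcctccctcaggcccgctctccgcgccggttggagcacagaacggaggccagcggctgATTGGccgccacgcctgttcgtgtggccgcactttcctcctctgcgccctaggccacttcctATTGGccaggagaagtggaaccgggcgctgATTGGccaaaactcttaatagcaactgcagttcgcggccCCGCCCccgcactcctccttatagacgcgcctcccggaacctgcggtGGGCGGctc
The Cct3 window holds 2 CCAAT boxes and 1 GC box, and that of Cct7 holds 3 and 2. Windows were found for 7 of the 8 subunits, all but Cct4, and numbered 9, since Cct2 and Cct5 have 2 each. A GC box was in 8 of these 9 windows, all but 1 of the Cct5 windows, and in 32.7% of the 32851 windows of this length. A CCAAT box was in 4 of the 9, namely those of Tcp1, Cct3, Cct6a and Cct7, and in 33.8% of all windows. Paired GAA and TTC units of the heat shock element, read on both strands, were found as GAANNTTC in 1 window of Cct2 and as TTCNNGAA in 1 window of Cct5, beside 6.69% and 7.17% of all windows. These matches describe the letters in the windows, and binding was not measured.

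Cct6a and Cct5 complete the 4 subunits with the larger falls. Cct6a measured 111, 115 and 123 CPM in the 72 h mice, 175, 166 and 152 CPM in the 24 h mice, and 141, 137 and 148 CPM in the air mice. Its 24 h libraries were spread more widely than those of any other subunit on the relative scale, with replicate 3 only just above the highest air mouse. The log2 fold change of Cct6a at 72 h against 24 h was -0.49 ± 0.07 (edgeR adjusted p = 0.00635). Cct5 measured 168, 174 and 187 CPM in the 72 h mice, 249, 249.6 and 229 CPM in the 24 h mice, and 199.7, 203 and 215 CPM in the air mice. The difference between the 24 h and air means was larger for Cct5 than for the other subunits. Its change at 72 h against 24 h was -0.46 ± 0.07 (edgeR adjusted p = 0.00669). The human CCT4 and CCT5 proteins can each form rings on their own.

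The remaining 4 subunits fell by less. Cct8 measured 163, 169.5 and 183 CPM in the 72 h mice, 239, 223 and 218 CPM in the 24 h mice, and 200.1, 194 and 209 CPM in the air mice. Its change was -0.40 ± 0.07 (edgeR adjusted p = 0.00844). Cct2, whose human protein has also been described as a receptor for protein aggregates in autophagy, was the most abundant by CPM. It measured 194, 201 and 214 CPM in the 72 h mice, 263, 272 and 254 CPM in the 24 h mice, and 240.4, 233 and 247 CPM in the air mice. Its change was -0.37 ± 0.06 (edgeR adjusted p = 0.00818). Tcp1 is the subunit first found, in the mouse t-complex. It measured 156, 161 and 173 CPM in the 72 h mice, 210.2, 210.3 and 202 CPM in the 24 h mice, and 185, 188 and 187 CPM in the air mice. The air mice were nearly level, and the change was -0.35 ± 0.06 (edgeR adjusted p = 0.00798). Cct4 measured 169, 185 and 197 CPM in the 72 h mice, 234, 234 and 232 CPM in the 24 h mice, and 211, 214 and 225 CPM in the air mice. It had the smallest fall, with tight 24 h values and wide 72 h values (-0.34 ± 0.07; edgeR adjusted p = 0.0122).

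Without 72 h replicate 1 and 24 h replicate 2, the libraries that carry markers of other cells, all 8 subunits were still called lower at 72 h than at 24 h (edgeR adjusted p 0.0114 to 0.0291; 8.5% of genes called lower). The median log2 fold change was then -0.37. Leaving out 72 h replicate 2 alone took the number called to 4: Tcp1, Cct2, Cct4 and Cct8 then had edgeR adjusted p of 0.0517 to 0.0638. Without 24 h replicate 1, Cct4 alone was lost (edgeR adjusted p = 0.0555). Over all genes, calls in either direction numbered 2855 with all libraries, 340 without 72 h replicate 2 and 1055 without 24 h replicate 1.

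Against air, the 72 h mice had lower levels of every subunit, with fitted changes of -12.5% for Tcp1 to -20.0% for Cct7 (median -15.3%). Cct7 fell by 0.32 ± 0.06 on the log2 scale (edgeR quasi-likelihood adjusted p = 0.0289) and Cct3 by 0.28 ± 0.06 (adjusted p = 0.0423). These were the 2 calls, in a comparison that called 3.77% of genes lower and 1.71% higher. The other 6 subunits had log2 fold changes of -0.29 to -0.19 and adjusted p of 0.0509 for Cct6a to 0.0829 for Cct5. All 72 h libraries lay below all air libraries for the 8 subunits, as for 22.1% of tested genes, and the median log2 fold change was -0.24 beside -0.01 over all tested genes. Without 72 h replicate 1 and 24 h replicate 2 the median was -0.18 and Cct7 alone was called (adjusted p = 0.0312; 2.66% of genes called lower). The number of calls turned on single mice and on the method. It was 4 without 24 h replicate 2 and 0 without any one of the other 8 libraries, 0 with upper quartile scaling and 8 with DESeq2. Over all genes, calls in either direction numbered 860 with all libraries, 1625 without 24 h replicate 2 and 7 to 198 without any one of the other 8. They numbered 299 with upper quartile scaling and 1936 with DESeq2.

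At 24 h against air, every subunit had a positive fold change, of 7.53% for Cct4 to 17.8% for Cct5 (median 12.4%), and edgeR called 0 of the 8. No gene in the table was called higher in this comparison (0%), and 1 was called lower. The largest log2 difference was that of Cct5, 0.24 ± 0.07 (edgeR adjusted p = 0.193), and the smallest that of Cct4, 0.10 ± 0.07 (adjusted p = 0.444). At an unadjusted p under 0.05, 6 of the 8 subunits were higher, against 8.68% of all genes. The exceptions were Cct2 and Cct4. All 24 h libraries lay above all air libraries for the 8 subunits and for 10.4% of tested genes. DESeq2 called 1 subunit, beside 4.72% of the genes to which it gave an adjusted p. That subunit was Cct5 (adjusted p = 0.0154; range over all alternatives 0.0154 to 0.618), and limma voom called 0 subunits. Without 72 h replicate 1 and 24 h replicate 2 the median log2 fold change was 0.15, against 0.17 with them. The 3 comparisons share their libraries: the 72 h values enter both falls, and the air values enter both comparisons with air.

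**Figure D2:**
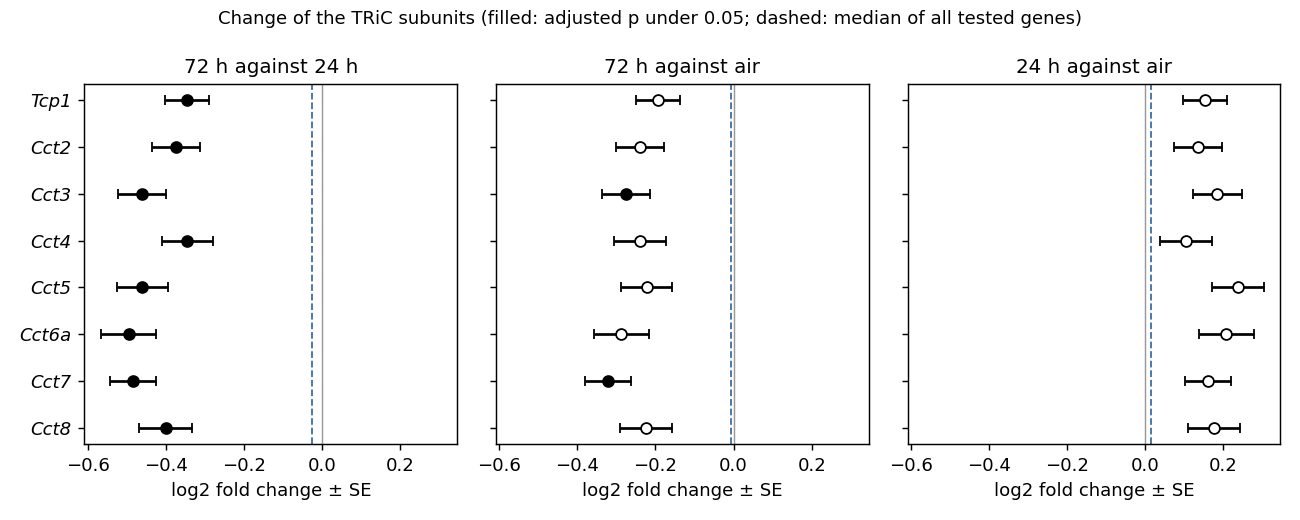
Fitted log2 fold change ± SE of each TRiC subunit in each comparison. Filled points have an adjusted p under 0.05 and the dashed line is the median of all 15713 tested genes. All 8 points are filled and lie between -0.49 and -0.34 at 72 h against 24 h, while 2 are filled at 72 h against air and 0 at 24 h against air.

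Levels of different genes can be compared only per length of transcript. Per kilobase of the longest transcript in the basic set of GENCODE M21, Cct2 was highest, with 104 ± 5.32 CPM per kb at 72 h, 134 ± 4.62 at 24 h and 122 ± 3.58 in air (SD, n = 3 each). Cct5 followed with 95.2 ± 5.19, 131 ± 6.37 and 111 ± 4.33 CPM per kb in the same groups. The mice overlapped between Cct2 and Cct5 at 72 h and at 24 h, and not in air. Cct4 (73.9 ± 5.52, 93.9 ± 0.540 and 87.3 ± 2.86 CPM per kb) and Cct8 (71.8 ± 4.30, 94.7 ± 4.37 and 83.9 ± 3.16) came next. Their mice overlapped in every group, though Cct4 was above Cct8 in 8 of the 9 libraries. Tcp1 had 66.8 ± 3.47, 84.8 ± 1.95 and 76.3 ± 0.697 CPM per kb at 72 h, 24 h and in air, and Cct3 58.1 ± 2.19, 79.9 ± 4.75 and 70.3 ± 2.19. Tcp1 overlapped with Cct4 and Cct8 at 72 h and with Cct3 at 24 h, and was apart from them otherwise. The lowest were Cct6a (47.5 ± 2.40, 66.9 ± 4.79 and 57.9 ± 2.30 CPM per kb) and Cct7 (46.7 ± 1.56, 65.2 ± 2.52 and 58.3 ± 2.81), whose mice overlapped in every group and of which Cct6a was the lower in air. In air the highest mean was 2.11 times the lowest. The order depends on the transcript taken for length: with the union of all exons, Cct6a ranked at place 5 at 24 h and in air, and Cct7 was last in every group.

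**Figure D3:**
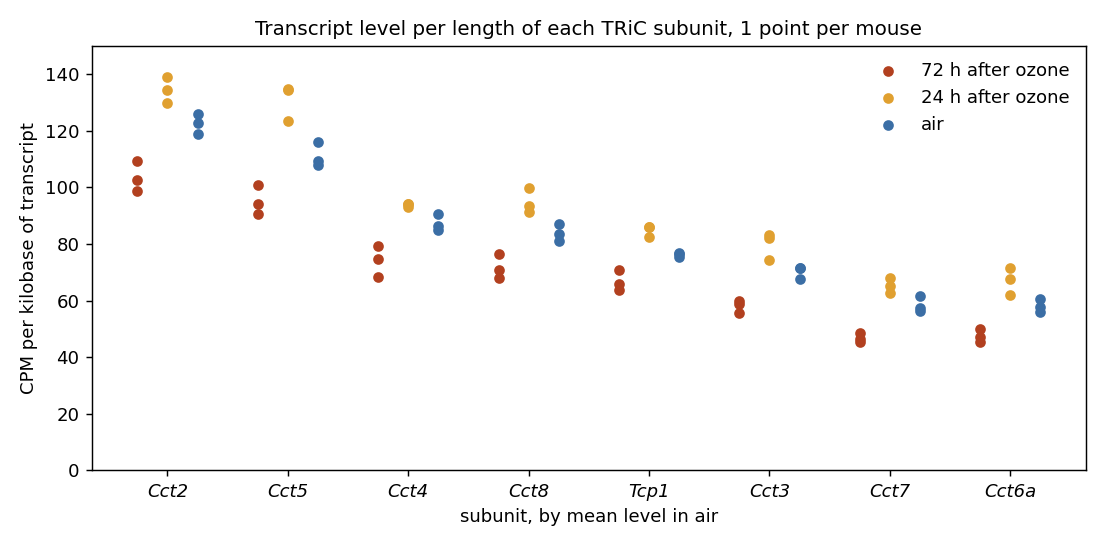
Level of each TRiC subunit per kilobase of its longest basic transcript, with 1 point per mouse and subunits ordered by their mean in air. Cct2 and Cct5 lie highest and Cct6a and Cct7 lowest in all groups, and in air the highest mean is 2.11 times the lowest.

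The proportions of the subunits changed little from mouse to mouse. Of the summed per-length level, Cct2 made up 17.5 to 18.6% over the 9 libraries, Cct5 16.3 to 17.6%, Cct4 12.3 to 13.3%, Cct8 12.2 to 13.0% and Tcp1 11.1 to 11.9%. Cct3 made up 10.1 to 10.8%, Cct6a 8.41 to 9.29% and Cct7 8.10 to 8.92%. In air, the shares of Cct4 (12.9 to 13.2%) lay above those of Cct8 (12.4 to 12.7%) in every mouse. The highest share of any subunit was 1.06 to 1.10 times its lowest. Cct6a took 8.41 to 8.45% of the sum in the 72 h mice, below the 8.60 to 9.29% of the 24 h mice and the 8.56 to 8.76% of the air mice. Cct5 took 17.2 to 17.6% in the 24 h mice, above the 16.8 to 17.0% of the 72 h mice and the 16.3 to 16.8% of the air mice. These differences in share were not tested.

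The subunits also varied together between mice of a group. Over the 28 pairs of subunits, Pearson's r of log2 CPM across the 9 libraries was 0.946 to 0.992 (median 0.976), and r of the deviations from the group means was 0.513 to 0.929 (median 0.794). These are descriptions over libraries that share their depth and scaling. Among the 72 h libraries, replicate 3 was the highest for 8 of 8 subunits and replicate 1 the lowest for 7, with replicate 2 lowest for Cct7. Replicate 3 was the lowest 24 h library for 8 of 8 subunits.

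Of the 8810 genes averaging at least 10 CPM, 5 followed the mean of the subunits most closely over the 9 libraries. Aven, an inhibitor of apoptosis, had r = 0.991, with 13.1 ± 0.624 CPM at 72 h, 17.2 ± 0.850 CPM at 24 h and 15.5 ± 0.710 CPM in air (SD, n = 3 each). Cycs, the cytochrome c of somatic cells, had r = 0.990, with 43.6 ± 3.53, 60.5 ± 2.68 and 51.7 ± 1.60 CPM. Txnl1, a thioredoxin-like protein, had r = 0.990, with 56.2 ± 3.75, 73.9 ± 2.72 and 65.7 ± 2.83 CPM. These levels show the same order of groups as the subunits, which follows from choosing the genes by their likeness to them. Snrpd1, a core protein of the spliceosome, had r = 0.989, with 34.9 ± 1.30, 51.6 ± 2.98 and 43.3 ± 2.78 CPM. Ncl, the nucleolar protein nucleolin, had r = 0.988, with 368 ± 10.4, 499.6 ± 34.1 and 446 ± 20.2 CPM. Over the 7 libraries without 72 h replicate 1 and 24 h replicate 2, r was 0.984 to 0.990 for these 5 genes. Likeness over the 9 libraries was shared by many genes: r was at least 0.95 for 280 genes, or 3.18%, where the median gene had 0.239.

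The genes that work around the chaperonin were described as lists by role. Their counts of calls stand beside these shares of all tested genes. At 72 h against 24 h, 12.8% were called lower and 5.39% higher, and against air 3.77% and 1.71%. Without 72 h replicate 1 and 24 h replicate 2, 8.5% were called lower than at 24 h and 2.66% lower than in air. Prefoldin is a smaller complex that hands unfolded actin and tubulin to TRiC. Of its 6 subunits, 5 were called lower at 72 h than at 24 h and 0 higher (median log2 fold change -0.38, beside -0.03 for all tested genes), and 3 were called lower than in air (median -0.34). Pfdn6 averaged 22.9 ± 0.458 CPM at 72 h, 33.6 ± 1.44 CPM at 24 h and 31.1 ± 1.32 CPM in air (SD, n = 3 each), with log2 fold changes of -0.55 ± 0.06 against 24 h (edgeR adjusted p = 0.00372) and -0.44 ± 0.06 against air (adjusted p = 0.0132). Pfdn2 averaged 31.3 ± 1.502, 42.1 ± 1.49 and 40.6 ± 2.18 CPM in the same groups, and Pfdn1 21.3 ± 1.20, 27.4 ± 1.17 and 24.3 ± 1.08 CPM. Unlike the TRiC subunits, Pfdn5 averaged less at 24 h (109 ± 7.15 CPM) than in air (119 ± 3.70 CPM), a difference that was not called (edgeR adjusted p = 0.381). It averaged 89.9 ± 3.51 CPM at 72 h and was called lower there than in both other groups. Without 72 h replicate 1 and 24 h replicate 2, the prefoldin subunits called lower than at 24 h numbered 3 (median -0.30) and those called lower than in air 3 (median -0.29). Leaving out 24 h replicate 1 or 72 h replicate 1 alone also gave 3 and leaving out 72 h replicate 2 alone gave 2, with Pfdn5 lost each time and Pfdn1 lost in the last.

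Of the 3 phosducin-like cochaperones, which help TRiC release or accept clients, Pdcl3 was called. It averaged 40.3 ± 2.38 CPM at 72 h, 49.0 ± 1.25 CPM at 24 h and 49.6 ± 1.04 CPM in air, with a log2 fold change of -0.28 ± 0.06 against 24 h (edgeR adjusted p = 0.0128) and -0.30 ± 0.05 against air (adjusted p = 0.0289). Its 24 h and air values overlapped. Of the 5 tubulin folding cofactors, which take tubulin over from TRiC, Tbcb was called, with 43.0 ± 1.00 CPM at 72 h, 55.4 ± 1.99 CPM at 24 h and 55.3 ± 6.72 CPM in air (-0.37 ± 0.08 against 24 h; edgeR adjusted p = 0.0197). The median log2 fold changes were -0.09 for the cochaperones and -0.17 for the cofactors against 24 h, and -0.15 and -0.27 against air. Neither list kept its call against 24 h without 72 h replicate 1 and 24 h replicate 2 (0 called in each; medians -0.05 and -0.08). Against air, Pdcl3 was then still called (adjusted p = 0.0495) and Tbcb was not (0.0727), with medians of -0.10 and -0.18. Calls were also lost without 72 h replicate 2 or 24 h replicate 1 for both genes, and for Tbcb without 24 h replicate 3, 72 h replicate 1 or 72 h replicate 3.

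Several tubulins, which are clients of the chaperonin, fell as well. Of 14 tested actin and tubulin genes, 6 were called lower at 72 h than at 24 h (median -0.53), and 2, Tuba1b and Tuba4a, were called lower than in air (median -0.11). All of these calls were tubulins. The actins Actb and Actg1, singled out after their values were seen, changed by -0.25 and -0.13 on the log2 scale against 24 h. Against air the changes were -0.13 and -0.10. Neither was called (edgeR adjusted p = 0.0672 and 0.334 against 24 h, 0.371 and 0.491 against air). Tuba1b, a main alpha tubulin, averaged 822 ± 29.3 CPM at 72 h, 1449.6 ± 56.2 CPM at 24 h and 1121 ± 94.1 CPM in air, with log2 fold changes of -0.82 ± 0.08 against 24 h (edgeR adjusted p = 0.00372) and -0.45 ± 0.08 against air (adjusted p = 0.0289). Tuba4a averaged 129 ± 5.90, 186 ± 3.46 and 168 ± 16.9 CPM at 72 h, 24 h and in air. The beta tubulins Tubb5 (559 ± 16.5, 881 ± 30.7 and 699 ± 76.2 CPM) and Tubb4b (137 ± 11.1, 221 ± 11.6 and 171 ± 20.9 CPM) fell against 24 h by 0.66 and 0.68 on the log2 scale. With 72 h replicate 1 and 24 h replicate 2 left out, 6 were still called lower than at 24 h (median -0.37) and 2 lower than in air (median -0.21), but Tubb2b was called higher than in both. Tubb2b, singled out after its values were seen, measured 2.15, 0.405 and 0.693 CPM in the 72 h mice, 0.0801, 9.20 and 0.0632 CPM in the 24 h mice, and 0.0788, 0.0846 and 0.133 CPM in the air mice. It was highest in that pair of libraries. Its log2 fold change at 72 h against 24 h was -1.52 with them and 2.91 without them (edgeR adjusted p = 0.588 and 0.0157).

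Of 13 other known clients, 4 were called lower and 2 higher at 72 h than at 24 h (median -0.10), and 1 was called higher than in air (median -0.09). Leaving out 72 h replicate 1 and 24 h replicate 2, 3 were called lower and 2 higher than at 24 h (median -0.07), and 1 higher than in air (median -0.11). Hdac3 was the call lost (adjusted p = 0.172). Ccne1 (cyclin E1, -0.85 ± 0.17), Cdc20 (a mitotic regulator, -0.57 ± 0.12) and Hdac3 (a histone deacetylase, -0.20 ± 0.06) fell, with edgeR adjusted p of 0.0142, 0.0171 and 0.0374. The G protein beta subunit Gnb4 rose: 7.78 ± 1.31 CPM at 72 h, against 3.28 ± 1.03 CPM at 24 h and 2.33 ± 0.146 CPM in air (1.25 ± 0.23 against 24 h; edgeR adjusted p = 0.010). Gnb4 was no longer called without 72 h replicate 2. Hdac3 was called in 1, Cdc20 in 6 and Ccne1 in 7 of the 9 fits that each left out a library. The number of other clients called lower was 0 without 72 h replicate 2 or 72 h replicate 3, 1 without 24 h replicate 1, and 2 without air replicate 2, 24 h replicate 2 or 24 h replicate 3.

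The mitochondrial chaperonin is built from Hspd1 and its lid Hspe1, and both fell at 72 h relative to 24 h. Hspd1 averaged 164 ± 10.6 CPM at 72 h, 249.997 ± 4.43 CPM at 24 h and 209 ± 9.19 CPM in air (-0.61 ± 0.07 against 24 h; edgeR adjusted p = 0.00374), and Hspe1 44.8 ± 2.87, 71.8 ± 4.66 and 57.9 ± 7.41 CPM. Against air, Hspd1 was called and Hspe1 was not (adjusted p = 0.0294 and 0.0589). The same numbers, 2 against 24 h and 1 against air, were called without 72 h replicate 1 and 24 h replicate 2 (medians -0.55 and -0.29, against -0.64 and -0.36 with them). Of 9 Hsp70 and Hsp90 partners, 5 were called lower at 72 h than at 24 h (median -0.53), and 1, the Hsp70 and Hsp90 adaptor Stip1, was called lower than in air (median -0.20). Hsp90aa1, the inducible Hsp90, averaged 231 ± 20.6, 393 ± 12.8 and 279 ± 9.24 CPM in the 3 groups, with a log2 fold change of -0.77 ± 0.08 against 24 h (edgeR adjusted p = 0.00366). Stip1 averaged 75.4 ± 6.22, 123 ± 3.13 and 95.4 ± 0.992 CPM, and the constitutive Hsp90ab1 1153 ± 119, 1669.8 ± 18.6 and 1433 ± 10.9 CPM. Hsph1, which recycles Hsp70, averaged 53.0 ± 7.18, 85.5 ± 12.3 and 61.3 ± 5.75 CPM. Once 72 h replicate 1 and 24 h replicate 2 were left out, 4 were called lower than at 24 h (median -0.44) and 1 lower than in air (median -0.13). Without 72 h replicate 2 the calls in this list against 24 h numbered 3, and Hsph1 was no longer one of them.

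Markers of dividing cells also had lower values at 72 h than at 24 h. Of 12 proliferation markers, 11 were called lower at 72 h than at 24 h (median -0.76) and 1, Pcna, was called lower than in air (median -0.22). Their summed level was 963.9 to 1106 CPM at 72 h, 1611 to 1685 CPM at 24 h and 999.9 to 1289 CPM in air. Leaving out 72 h replicate 1 and 24 h replicate 2, 10 were called lower than at 24 h and 1 lower than in air (medians -0.72 and -0.26), and without 72 h replicate 2 alone 7 were called lower than at 24 h. Mcm6, of the replicative helicase, averaged 85.2 ± 7.87, 159 ± 11.9 and 102 ± 15.3 CPM (-0.90 ± 0.12 against 24 h; edgeR adjusted p = 0.00595). Mcm3 averaged 83.9 ± 5.86, 145 ± 9.70 and 98.7 ± 13.1 CPM, Mcm4 72.5 ± 4.12, 119 ± 8.52 and 81.7 ± 9.56 CPM, and Pcna 195 ± 10.5, 329.7 ± 21.5 and 253 ± 23.2 CPM. The order of groups in these sums is close to that of the subunits, though the 72 h and air ranges overlap here. At 72 h, 10 of the 12 were lower than in air. The other 2, Mki67 and Ccnb1, singled out after their values were seen, were higher and not called (edgeR adjusted p = 0.173 and 0.663). Mki67, the marker not called against 24 h (adjusted p = 0.163), averaged 242 ± 18.0 CPM at 72 h, 281 ± 23.2 CPM at 24 h and 206 ± 20.2 CPM in air. Neutrophil markers (6 genes, of which Retnlg and Ly6g were at 0 in some libraries) summed to 74.32 to 125.2 CPM at 72 h, 54.89 to 135.7 CPM at 24 h and 53.5 to 66.12 CPM in air. The highest sums were those of 72 h replicate 1 and 24 h replicate 2, against 53.5 to 78.31 CPM in the others. Of the 5 tested, 1 was called higher at 72 h than at 24 h and 1 higher than in air. The shares of all genes were 5.39% and 1.71%. Without that pair of libraries, 2 and 3 were called higher. Over all genes, calls in either direction then numbered 2377 and 1122. Lung epithelium markers (8 genes, of which 0 were at 0 in any library) summed to 204.8 to 259.4 CPM at 72 h, 198 to 288.2 CPM at 24 h and 204 to 243.4 CPM in air, with Epcam and Cdh1 making up most of each sum. Of the 8, 5 were called higher at 72 h than at 24 h and than in air, with or without 72 h replicate 1 and 24 h replicate 2. These were Cldn18, Krt8, Krt18, Ager and Aqp5, singled out after their values were seen, which averaged at most 11.5 CPM in any group. Cldn18, a tight junction protein, measured 7.76, 12.3 and 14.4 CPM in the 72 h mice, 1.28, 0.647 and 1.01 CPM in the 24 h mice, and 0.571, 0.981 and 0.965 CPM in the air mice. Its log2 fold changes were 3.55 ± 0.35 against 24 h (edgeR adjusted p = 0.00372) and 3.77 ± 0.36 against air (adjusted p = 0.00421). The part of cell division, or of any other cell type, in the levels of the subunits was not tested.

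**Figure D4:**
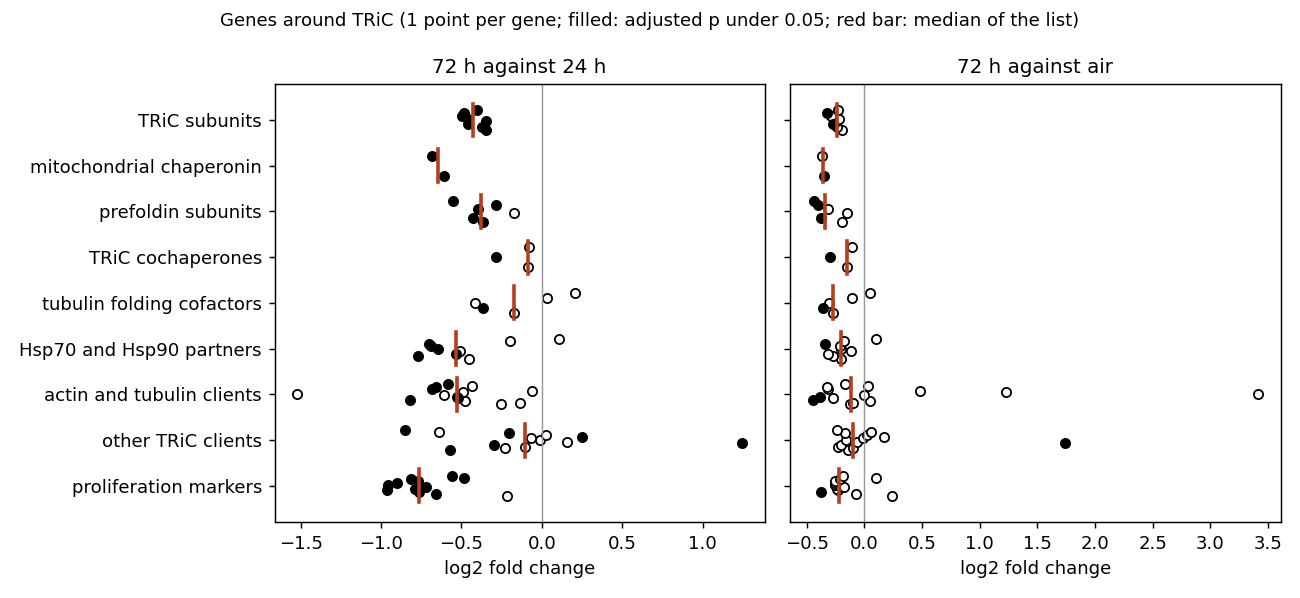
Log2 fold change of each tested gene in the lists around TRiC, at 72 h against 24 h and at 72 h against air. Filled points have an adjusted p under 0.05 and the red bar is the median of the list. At 72 h against 24 h the medians run from -0.76 for proliferation markers to -0.09 for TRiC cochaperones, with -0.43 for the TRiC subunits.

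At 24 h against air, edgeR called 0 of the 64 genes tested in these 8 lists. At an unadjusted p under 0.05, 32 were higher and 2 lower, beside 8.68% and 6.05% of all tested genes. DESeq2 called 22, beside the same 4.72%, and limma voom called 0. The median log2 fold change was 0.57 for the proliferation markers, 0.39 for actin and tubulin genes and -0.03 for the cochaperones. It was 0.56, 0.27 and -0.02 without 72 h replicate 1 and 24 h replicate 2. Of the 24 genes named from these lists by the rule given below, 15 were called at 72 h against 24 h whichever library was left out.

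Subunit loci lie on separate chromosomes. In GENCODE M21 on GRCm38, Tcp1 is at chr17:12915701-12925067 (plus strand), Cct2 at chr10:117051001-117063814 (minus), Cct3 at chr3:88297116-88321767 (plus) and Cct4 at chr11:22990519-23003780 (plus). Cct5 is at chr15:31590800-31601804 (minus), Cct6a at chr5:129786998-129846371 (plus), Cct7 at chr6:85451514-85468475 (plus) and Cct8 at chr16:87483326-87495873 (minus). Values are sums over all transcripts of a gene. The labels do not state whether counting used strand, so reads from exons shared with a gene on the opposite strand are uncertain. Exons of Cct6a share 452 bases with Psph (mean 10.5 CPM; log2 fold change at 72 h against 24 h -0.66), those of Cct7 share 214 bases with Pradc1 (7.17 CPM; -0.61) and those of Tcp1 share 141 bases with Mrpl18 (33.45 CPM; -0.54). These neighbours were called lower (edgeR adjusted p = 0.0130, 0.00904 and 0.00764). Tcp1 also shares 571 bases with Acat3, which was not called (0.271 CPM; -0.42; adjusted p = 0.813). Cct8 shares 192 bases with Usp16, whose log2 fold change was 0.03 (43.9 CPM; adjusted p = 0.676), while Cct2, Cct3, Cct4 and Cct5 share no exon with another gene. Cct6b, the testis-type counterpart of Cct6a, had 2 to 7 counts per library and was not tested.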

How the data were processed

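The authors deposited estimated counts per gene, of which 80.5% were whole numbers to within 1e-09. Per the submitters' processing notes, Trimmomatic 0.39, FastQC, Salmon and DESeq2 were used with GRCm38.p6; other versions and the options are not stated there. An unnamed last column with gene symbols was not used. GENCODE M21 gave symbols for 54107 of 54281 identifiers. Counts were rounded and analysed in R 4.3.3 with edgeR 4.0.16 (filterByExpr, TMM scaling, robust quasi-likelihood fit of all 9 libraries by group, Benjamini-Hochberg adjustment over 15713 genes, SE from the F statistic), after the code was tested on simulated data. CPM are counts scaled by TMM library size. Alternatives used limma 3.58.1 (voom), DESeq2 1.42.0, other scalings and filters, a replicate block and omitted libraries. With 3 against 3 mice, an exact permutation test cannot go below p = 0.1, so none is given. No pair of replicates agreed within sampling noise (chi-square per degree of freedom 7.25 to 135). Subunits and lists were chosen with earlier results of these data known. Named genes are all subunits, the 5 most alike, and from each list the 4 or fewer called members of lowest p. Genes said to be singled out were added to these. RefSeq supplied promoters.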

Additional observations from a re-analysis of the deposited data

Results flagged for a closer look

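For each subunit the effect of ozone at 72 h differed from that at 24 h, measured against the same air mice. The log2 difference between the effects, which equals 72 h against 24 h, was -0.35 for Tcp1, -0.37 for Cct2, -0.46 for Cct3, -0.34 for Cct4, -0.46 for Cct5, -0.49 for Cct6a, -0.48 for Cct7 and -0.40 for Cct8 (edgeR quasi-likelihood adjusted p 0.0052 to 0.0122, all 72 h mice below all 24 h mice). The fitted difference from air was negative at 72 h and positive at 24 h for all 8. Against air, edgeR called 2 of the 8 at 72 h and 0 at 24 h (adjusted p 0.193 to 0.444 at 24 h). The air mice have no stated time after exposure, so ozone and time cannot be told apart here.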

How the results depend on the processing

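In all 456 alternative fits of a single subunit the direction stayed the same; 29 lost a call and 12 gained one. Upper quartile scaling moved the median log2 fold change of the subunits at 72 h against 24 h to -0.37, and leaving out 72 h replicate 1 with 24 h replicate 2 moved it to -0.37 and that at 72 h against air to -0.18 (range without single libraries -0.30 to -0.20). All 8 subunits stayed called at 72 h against 24 h except without single libraries (4 to 8). At 72 h against air, where 2 were called, the number was 1 with DESeq2 size factors, 0 with upper quartile scaling, 1 without a filter, 1 with a filter of 1 CPM, 8 with DESeq2, 4 without robust dispersion, 1 without both libraries and 0 to 4 without single libraries. DESeq2 called 1 at 24 h against air. For any difference it was 0 to 8 without single libraries. The cause was not tested. Same-numbered libraries deviated together (r over 0.1) in 2 of 9 pairs. With 3 libraries per group, some carrying markers of other cells, this cannot decide whether the numbers pair mice. With the replicate block, 8 subunits were called at 72 h against 24 h, 0 at 72 h against air and 0 for any difference. Over all genes, calls at 24 h against air were 1, or 608 with DESeq2 and 7 without both libraries. At 72 h against air they were 860, or 506 with DESeq2 size factors, 299 with upper quartile scaling, 270 without a filter, 459 with the CPM filter, 1936 with DESeq2, 35 with the block and 7 to 1625 without single libraries. At 72 h against 24 h they were 2855, or 1696 without a filter, 1474 with the block and 340 to 2499 without single libraries. For any difference they were 2081, or 1167 without a filter, 3689 with DESeq2, 106 with the block and 15 to 2232 without single libraries. The 24 partner genes kept their direction in all fits, and 36 of 456 such fits lost a call. Tubb2b at 72 h against 24 h, -1.52, reversed to 1.12 with limma voom, 0.47 with the block, 2.91 without both libraries and 3.88 without 24 h replicate 2. Without any other single library it stayed negative, at -2.50 to -1.13.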
